A study of Saccharomyces cerevisiae with 4 samples.

Results

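The 7 regulators of glycolytic gene expression and glycolytic flux in Saccharomyces cerevisiae were followed in a strain that keeps a minimal set of glycolytic genes and in its reference strain. They were chosen by systematic name, by a rule that used no value, though earlier results of these data were known. The transcription factor genes are GCR1 (YPL075W), GCR2 (YNL199C), RAP1 (YNL216W) and TYE7 (YOR344C). The others are PFK26 (YIL107C), PFK27 (YOL136C) and FBP26 (YJL155C), whose enzymes make and break fructose 2,6-bisphosphate. All 7 were found, with 1 gene model each, among the 5472 models of the authors' deposited table, and all 7 are among the 5362 genes that were tested and have a value in both strains.

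Glycolytic genes of yeast are among the most strongly expressed genes of the cell, and their promoters share a small set of activators. Rap1 binds the promoter and lets Gcr1 bind beside it, Gcr2 joins Gcr1 as a coactivator, and Tye7, a basic helix-loop-helix protein, adds to the activation. Flux is tuned separately, by fructose 2,6-bisphosphate, a signal metabolite that activates phosphofructokinase and inhibits fructose 1,6-bisphosphatase. Pfk26 and Pfk27 are the 6-phosphofructo-2-kinases that make this metabolite, and Fbp26 is a fructose 2,6-bisphosphatase that removes it.

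The study asked what remains of glycolysis when all minor paralogs are removed. The reference strain CEN.PK113-7D is MATa MAL2-8c SUC2 and prototrophic. The minimal glycolysis strain IMX372 shares these alleles and carries ura3-52, his3-1 and a mutant leu2 allele. Its 13 deletions remove hexose kinases (hxk1::KlLEU2 and glk1::SpHis5), glyceraldehyde 3-phosphate dehydrogenases (tdh1::KlURA3 and tdh2), phosphoglycerate mutases (gpm2 and gpm3), eno1, pyk2, pyruvate decarboxylases (pdc5 and pdc6) and alcohol dehydrogenases (adh2, adh4 and adh5). None of the 7 regulators is deleted. Effects of the deletions and of the marker alleles cannot be told apart, and IMX372 is a single strain. Each strain has 2 RNA sequencing libraries, from a design of 4 independent batch cultures per strain, and the labels do not say outright that the libraries came from different cultures. Cells were sampled in mid-exponential phase in bioreactors sparged with air, held at 30 °C and pH 5, from an initial glucose of 20 g/L. Of the 13 deleted genes, 11 have a model, and 10 of these are listed at 0 in both strains, so these values do not check the strain labels. GPM3, at an FPKM of 57.7 in the reference and listed at 0 in IMX372, is the deleted gene that does.

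The table gives 1 FPKM (fragments per kilobase of model, scaled to the size of the library) for each gene in each strain. Values per library are not given, so single libraries and an SD cannot be shown. How the libraries of a strain were combined, and whether the authors' test takes in their spread, is not known. Read numbers per library and per gene are unknown. An error was therefore read from the authors' test: the log2 ratio divided by the authors' test statistic gives a standard error (SE) of that ratio. Its median over all tested genes was 0.19 on the log2 scale. A normal p computed from this statistic and the authors' p ranked genes alike (Spearman's rho = 0.96 across 5362 genes, which are not independent replicates), but the 2 were not equal, so the intervals below are approximate. The SE also varied with gene length, with a median of 0.11 in the shortest of 10 bins and 0.21 in the longest. For each of the 7 regulators it was larger than the error implied by the p (0.20 against 0.16 for GCR1).

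The minimal glycolysis strain kept transcript of all 7 regulators, and no regulator was called different between the strains. The authors' Cuffdiff test called 0 of the 7 at a q of 0.05, against a background of 0.746% of the 5362 genes (40 genes, 28 higher and 12 lower). A stricter q of 0.01 (0.634% of all genes) and a 2-fold limit (0.504%) also gave 0 of the 7. At an unadjusted p of 0.05 the test picked 1 of the 7, GCR1, which was lower, against 3.17% of all genes in either direction and 1.29% as lower. The 7 log2 ratios of minimal glycolysis over reference ran from -0.35 to 0.09, with 5 below 0, 2 above and a median of -0.10, while 47.0% of all tested genes lay below 0 and their median was 0.01. All 7 intervals of 95% from the authors' statistic included 0. A miss of the threshold does not show that the levels were alike: the intervals reach down to 0.596 of the reference level for GCR1 and up to 1.39 times that level for GCR2. In a bulk culture, fewer cells with a transcript and less of it per cell cannot be told apart.

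**Figure D1:**
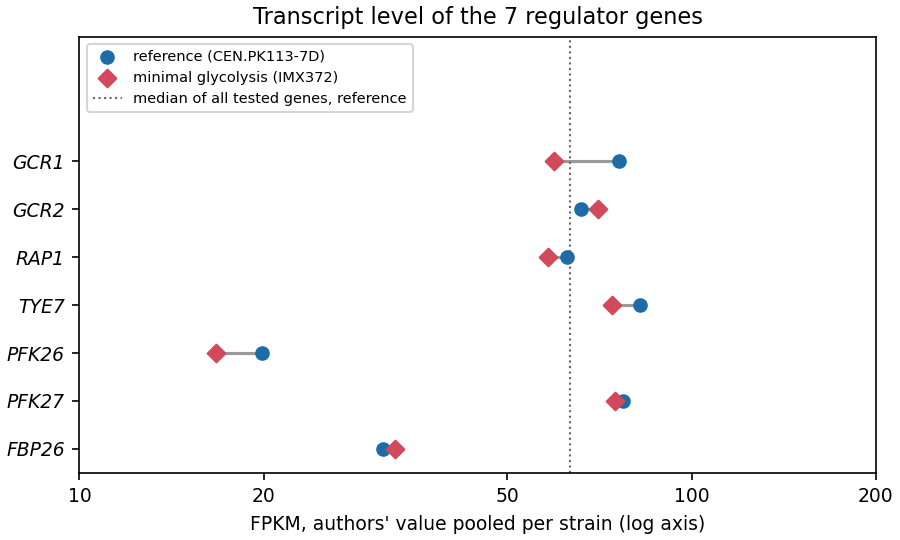
FPKM of each regulator gene (log axis) in the reference strain (circles) and the minimal glycolysis strain (diamonds), 1 pooled value per strain, with the median of all tested genes in the reference (63.2) as a dotted line. TYE7, PFK27, GCR1, GCR2 and RAP1 lie near that line in both strains, whereas PFK26 and FBP26 lie below it, and GCR1 has the longest step between the strains.

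GCR1, which encodes the activator that binds glycolytic promoters, stood furthest from equality. Its FPKM was 76.0 in the reference and 59.5 in the minimal glycolysis strain, or 0.783 of the reference level. The log2 ratio was -0.35 with an SE of 0.20 and a 95% interval of -0.75 to 0.04. In the authors' deposited table its p was 0.0295 and its q 0.998 (Cuffdiff). An interval built from that p in place of the statistic ran from -0.67 to -0.04, so the sources disagree on whether 0 lies inside. Of all tested genes, 95 had a lower log2 ratio and 109 a smaller p. GCR1 falls in a bin of 536 genes by mean FPKM (1 of 10 equal bins), of which 7 were called. The smallest of these changes was 1.61-fold, and the largest in the bin that was not called was 1.51-fold. The 1.28-fold lower value of GCR1 thus lies below any size called there.

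GCR2, whose product acts with Gcr1, lay on the other side of 0. Its FPKM was 66.0 in the reference and 70.3 in the minimal glycolysis strain, 1.07 times the reference level. The log2 ratio was 0.09 with a 95% interval of -0.29 to 0.47 (Cuffdiff p = 0.572 in the authors' deposited table). GCR1 thus had more transcript than GCR2 in the reference, at 1.15 times the GCR2 level, and less in the minimal glycolysis strain, at 0.846 times. The difference between the log2 ratios of GCR1 and GCR2 was -0.44, the largest of the 21 pairs of regulators, with a 95% interval of -0.99 to 0.10 that includes 0. The intervals of the other 20 pairs included 0 too, so no regulator was shown to differ from another in its response.

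RAP1, an essential factor that also serves ribosomal protein genes and telomeres, had an FPKM of 62.6 in the reference and 58.3 in the minimal glycolysis strain. Its log2 ratio was -0.10 with a 95% interval of -0.50 to 0.30 (Cuffdiff p = 0.525 in the authors' deposited table). TYE7 had the highest level of the 7 in the reference, at an FPKM of 82.4, and 74.0 in the minimal glycolysis strain. Its log2 ratio was -0.16 with a 95% interval of -0.51 to 0.20 (Cuffdiff p = 0.361 in the authors' deposited table). These 2 factor genes differed between the strains by less than their error.

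The fructose 2,6-bisphosphate genes had uneven levels. PFK27, which encodes a 6-phosphofructo-2-kinase, had an FPKM of 77.3 in the reference and 75.04 in the minimal glycolysis strain (log2 ratio -0.04, 95% interval -0.39 to 0.31). PFK26, the gene of the other kinase, had 19.9 and 16.7 (log2 ratio -0.25, 95% interval -0.66 to 0.17). FBP26, the bisphosphatase gene, had 31.3 and 32.8 (log2 ratio 0.07, 95% interval -0.30 to 0.44). The strains thus lie close together for PFK27 and FBP26 and furthest apart for PFK26, whose level is the lowest of the 7. In the authors' deposited table the Cuffdiff p was 0.161 for PFK26, 0.798 for PFK27 and 0.703 for FBP26, and the q of all 7 regulators was 0.998.

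PFK27 supplied most of the kinase transcript in both strains. Its FPKM was 3.89 times that of PFK26 in the reference and 4.48 times in the minimal glycolysis strain, or 79.6% and 81.8% of the sum of both genes. That sum was 97.2 in the reference and 91.8 in the minimal glycolysis strain. Set against FBP26, kinase transcript stood at 3.11 times bisphosphatase transcript in the reference and at 2.80 times in the minimal glycolysis strain. The log2 change of this balance was -0.15 with a 95% interval of -0.62 to 0.32, and that of the PFK27 to PFK26 ratio was 0.20 with an interval of -0.34 to 0.75, so neither balance moved beyond its error.

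**Figure D2:**
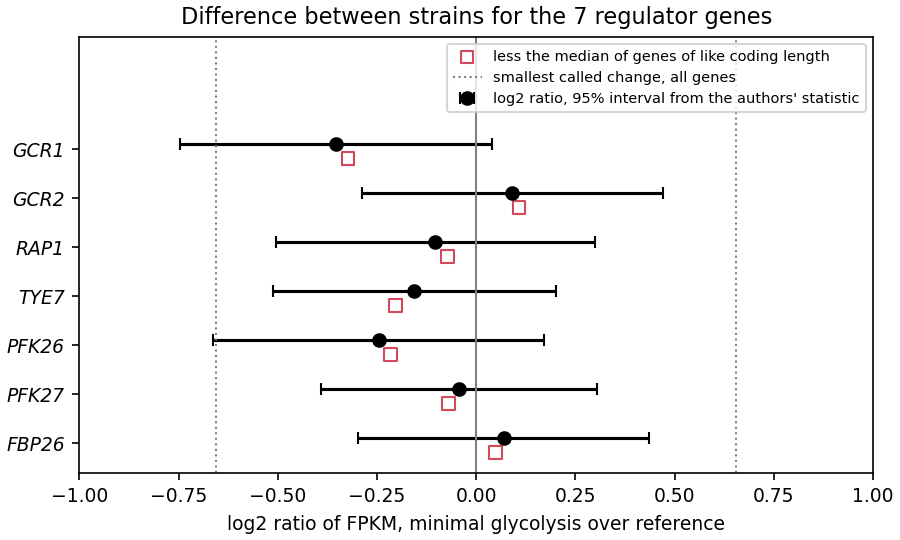
Log2 ratio of FPKM, minimal glycolysis over reference, for each regulator gene (filled points) with the 95% interval from the authors' test statistic. Open squares give the ratio less the median of genes of like model length (labelled coding length, but a span that includes introns). Dotted lines mark the smallest change called among all genes (1.57-fold). All 7 intervals cross 0.

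In the reference, the levels ran from TYE7 through PFK27, GCR1, GCR2, RAP1 and FBP26 to PFK26. In the minimal glycolysis strain PFK27 came first, then TYE7, GCR2, GCR1, RAP1, FBP26 and PFK26. If the error from the authors' statistic is split evenly between the strains, no neighbours among the first 5 genes differed beyond it in either strain. Each step was at most 0.24 on the log2 scale against 95% limits of 0.35 or more. RAP1 lay above FBP26 by 2.00 times in the reference and 1.78 times in the minimal glycolysis strain. FBP26 lay above PFK26 by 1.575 times and 1.959 times. These steps were larger than their 95% limits. This error does not cover differences in how well each sequence is read, and whether it takes in the spread of the libraries is not known. Among all tested genes the regulators were of ordinary level: TYE7 lay above 57.9% of genes in the reference, RAP1 above 49.7%, FBP26 above 27.2% and PFK26 above 15.9%.

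**Figure D3:**
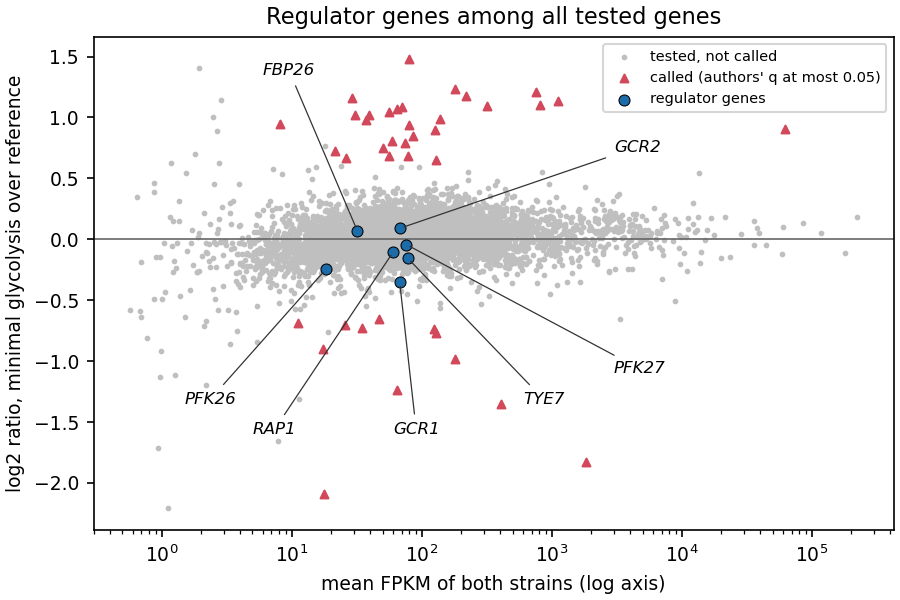
Log2 ratio of minimal glycolysis over reference against the mean FPKM of both strains (log axis) for 5362 tested genes. Red triangles are the 40 genes called by the authors' q, and blue points are the regulator genes, which all lie inside the cloud of genes not called, with GCR1 at its lower edge.

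Length here is the span of a model from start to end, with any intron inside it. This length moved with the log2 ratio across the table (Spearman's rho = -0.34 over 5362 genes, a description, since genes share the libraries). The median log2 ratio was 0.07 in the shortest of 10 equal bins of genes and -0.07 in the longest. The 3 longest regulator genes are GCR1 (2535 bp), PFK26 (2484 bp) and RAP1 (2421 bp), and TYE7 is the shortest (876 bp). Measured from the median of genes of like length, GCR1 stood at -0.32, PFK26 at -0.22, TYE7 at -0.20, RAP1 and PFK27 at -0.07, FBP26 at 0.05 and GCR2 at 0.11. With expression level also allowed for, TYE7 stood at -0.29, 1.85 times as far from 0 as its plain log2 ratio of -0.16, PFK27 at -0.07 and FBP26 at -0.003. Measured from genes of like level alone, PFK27 stood at -0.08 and GCR2 at 0.05, against plain log2 ratios of -0.04 and 0.09. Each of these shifts was smaller than the SE of its gene. The part of length in these ratios was not tested further.

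**Figure D4:**
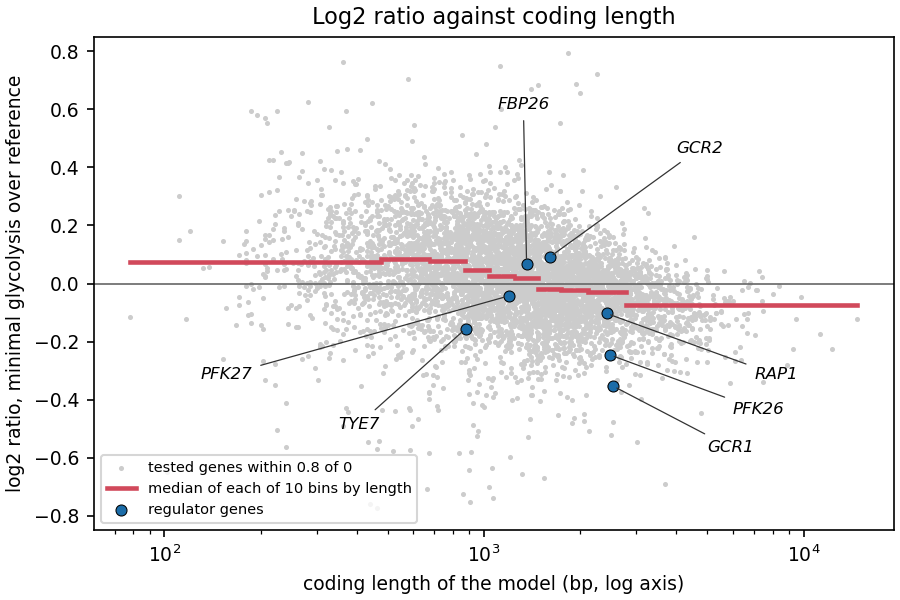
Log2 ratio of minimal glycolysis over reference against model length (log axis, bp) for tested genes within 0.8 of 0 (grey). The axis is labelled coding length, but the length is the span from start to end, with any intron. Red bars give the median of each of 10 equal bins of genes by length, which runs from 0.07 for the shortest to -0.07 for the longest, and blue points are the regulator genes, of which GCR1, PFK26 and TYE7 lie furthest below the bar of their length.

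Positions are those of the table on the CEN.PK113-7D assembly. GCR1 lies on chromosome 16 (412757 to 415291), GCR2 (258920 to 260524) and RAP1 (235709 to 238129) on chromosome 14, TYE7 (977100 to 977975) and PFK27 (67439 to 68632) on chromosome 15, PFK26 on chromosome 9 (163280 to 165763) and FBP26 on chromosome 10 (111782 to 113140). Model lengths are spans from start to end, with any intron inside counted, and no other model overlaps any of the 7. In 5 of the 7 the model is as long as the gene of that name in the R64 reference annotation of strain S288C. In these 5 the R64 gene is also as long as its coding sequence. The RAP1 model is shorter (2421 against 2484 bp). The GCR1 gene spans 3109 bp in R64, of which 2358 bp are coding, in 2 segments parted by an intron of 751 bp. The GCR1 model of 2535 bp matches neither length, and which bases it takes in or leaves out was not determined.

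TYE7 is the regulator nearest to a deleted locus. PYK2, the deleted minor pyruvate kinase gene, starts 6.87 kb to its right with 1 model between them, REV1, a DNA repair polymerase gene. REV1 went from an FPKM of 34.0 to 27.4 (log2 ratio -0.31, Cuffdiff p = 0.0596 in the authors' deposited table) and was not called. PFK27 and FBP26 share their chromosomes with deleted genes but lie at least 154 kb away, and GCR1, GCR2, RAP1 and PFK26 share theirs with no deleted gene that has a model. Of the 14 nearest models on either side of the 7 regulators, 0 were called by the authors' Cuffdiff q and 0 had an unadjusted p under 0.05. Over all tested genes these shares were 0.746% and 3.17%, so counts of 0 in 14 models are no result about them. The log2 ratios of the 14 lay between -0.31 and 0.28 with a median of -0.02. GCR1's neighbours GPI2 and YTA6 stood at -0.17 and 0.02.

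The glycolytic genes that Gcr1, Gcr2, Rap1 and Tye7 act on were set beside their regulators. Of 13 listed target genes, ENO2 and ADH1 were not analysed here. FBA1 and TDH3, with FPKM of 18392 and 18778 in the reference, are marked HIDATA in the authors' deposited table, were not tested and show a 0 for IMX372 that was not read as a level. Of the 9 others, 0 were called (Cuffdiff, 0 at an unadjusted p of 0.05 as well), against 0.746% and 3.17% of all tested genes. At such shares a count of 0 in this list, or in the short lists below, is no result about its genes. All 9 had log2 ratios below 0, against 47.0% of all tested genes, with a median of -0.19. They ran from PGK1, the phosphoglycerate kinase gene, at -0.32 and CDC19, the pyruvate kinase gene, at -0.25 to PGI1 and TPI1, isomerase genes, both at -0.11. These targets had a median FPKM of 4493 in the reference, against 66.0 for the regulators. Their ratios and those of the regulators come from the same libraries, so the shared sign is a description.

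Around the fructose 2,6-bisphosphate genes, 0 of 5 tested genes of the fructose phosphate node were called, against 0.746% of all tested genes. Below 0 lay 4 of the 5, against 47.0% of all tested genes, with a median log2 ratio of -0.11. Of the 5, PFK1, PFK2 and PGI1 are also among the glycolytic target genes, so these 3 are no further observation. The phosphofructokinase genes PFK1 and PFK2, whose enzyme the metabolite activates, stood at -0.24 (95% interval -0.68 to 0.21) and -0.20 (-0.65 to 0.25). FBP1, the fructose 1,6-bisphosphatase gene, had an FPKM of 10.02 in the reference and 10.7 in the minimal glycolysis strain, a log2 ratio of 0.09. YLR345W, whose product resembles 6-phosphofructo-2-kinases, stood at -0.01. Protein kinase A phosphorylates Pfk26. In the pathway of this kinase 0 of 15 genes were called, against 0.746% of all tested genes. Of the 15, 10 lay below 0, against 47.0% of all tested genes, with a median of -0.10. That list ran from CYR1, the adenylate cyclase gene, at -0.27 and IRA1, a Ras inhibitor gene, at -0.23 to TPK3, a kinase subunit gene, at 0.16 and RAS1 at 0.16. Its median was -0.02 over genes with an FPKM of at least 10, and -0.05 over all 15 when measured from genes of like length.

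Other transcription factor genes lay on both sides of 0. Of 5 other genes linked to the expression of glycolytic genes, 0 were called and 3 lay above 0, with a median log2 ratio of 0.03: STO1, also known as GCR3, whose product binds the cap of nuclear RNA and not promoters, stood at -0.17, the Mediator gene GAL11 at -0.12, ABF1 at 0.16 and CBF1 at 0.24. Of the 7 other basic helix-loop-helix genes, the family of TYE7, 0 were called and 5 lay above 0, with a median of 0.08. INO2, an activator gene of phospholipid synthesis, had an FPKM of 64.3 in the reference and 79.6 in the minimal glycolysis strain (log2 ratio 0.31, 95% interval -0.05 to 0.66), and CBF1 40.7 and 48.3. PHO4, the phosphate regulator gene, and RTG3, a retrograde signalling gene, stood at -0.05 and -0.03. Among the 175 genes that the deposited table files under transcription, without the regulators, 0 were called, against 0.746% of all tested genes. Of these 175, 3 had an unadjusted p of at most 0.05 and a higher level, against 1.88% of all tested genes. Above 0 lay 122, against 53.0% of all tested genes, and the median was 0.07. This category was chosen after the values were seen. The lowest log2 ratio in it was -0.27, above that of GCR1.

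**Figure D5:**
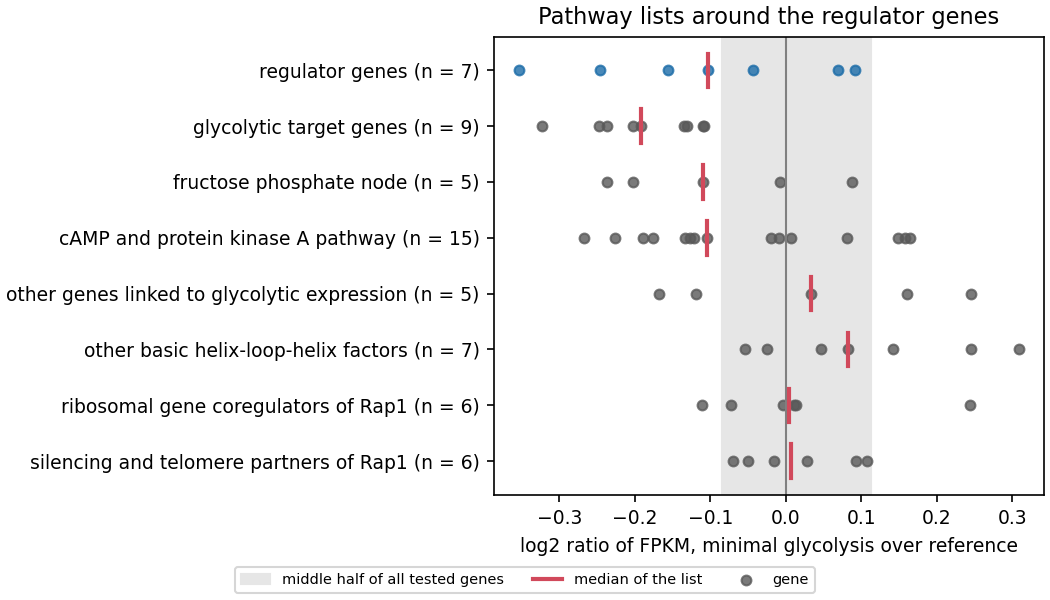
Log2 ratio of minimal glycolysis over reference for each tested gene (points) of the regulators and of 7 lists around them, with the median of each list (red bar) and the middle of all tested genes, from the first to the third quartile, as a grey band. The glycolytic target genes all lie left of the band, and the coregulators and partners of Rap1 centre on 0.

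Rap1 has roles outside glycolysis, and the genes of these roles were read in the same way. Of 6 coregulators at ribosomal protein genes, 0 were called and the median log2 ratio was 0.004, with CRF1, a corepressor gene, at -0.11, TBF1 at -0.07, FHL1 at 0.01 and IFH1, a coactivator gene, at 0.24. Of 6 silencing and telomere partners, 0 were called and the median was 0.01, from RIF1 at -0.07 and SIR4 at -0.05 to SIR2 at 0.09 and RIF2 at 0.11. The signs of both medians turn when the ratio is centred on all genes (-0.01 for each). Ribosomal protein genes, the largest group of Rap1 targets, were picked by symbol (RPL, RPS or RPP with a number). This rule can take in a gene of such a name outside the group. Of 138 genes so listed, 110 had a model and were tested. Among these 110, 0 were called, against 0.746% of all tested genes. An unadjusted p of at most 0.05 was found for 1, against 3.17%. At these shares neither count is a result about ribosomal protein genes. Of the 110 genes, 93 lay above 0, against 53.0% of all tested genes, and the median was 0.10. RPS8B and RPS21A stood highest at 0.54 and 0.32, and RPP0 and RPP1A lowest at -0.25 and -0.20. These genes are short, with a median span of 762.5 bp, any introns included. Measured from genes of like span, their median log2 ratio was 0.03. Genes of like span can differ in transcript length where introns are present, and transcript length was not tested. Many ribosomal protein genes exist as near-identical pairs. Of the 110, 11 are listed on another chromosome than their name gives, RPS8B among them, so values of single copies are uncertain.

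Genes most like each regulator were sought by the distance between pairs of log2 FPKM, a likeness over only 2 pooled values. GCR1 had 3 genes within a distance of 0.1, whereas TYE7 had 48 and PFK27 had 81. The nearest named gene to GCR1 was IZH3 (FPKM 73.1 and 62.4, distance 0.09), with 1 unnamed model closer. PFK26 lay nearest to KNS1 and DHH1, with distances of 0.03 and 0.04, and TYE7 to STE6 and PCP1 at 0.01 and 0.02. The nearest genes were POL32 and SLY1 for GCR2, MRX9 and YDR415C for RAP1, ENT2 and MGL2 for PFK27, and MTF2 and SMY1 for FBP26, all within 0.02.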

How the data were processed

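RNA was sequenced in 4 libraries, 2 per strain, and groups were taken from the strain label. The submitters' processing notes name Cuffdiff and Cufflinks without a version, SAMtools (0.1.7-r510), BWA (0.5.9-r16) and CASAVA (1.8.2), and do not say which step each did. Reads of 51 bp were analysed on the genome sequence of CEN.PK113-7D, per the labels. Per the labels' protocols, libraries were made from cDNA with a DNA library kit, and no strand marking is described. The authors' deposited table has the layout of Cuffdiff and holds an FPKM per model and strain, a log2 ratio, a test statistic (a score), a p-value and a q-value. What the word masked in its sample names refers to is not stated in the sources used here. The number of unused columns with per-sample values was 0.

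The longest tested model per systematic name was kept. Log2 ratios were taken of the deposited FPKM with nothing added, and the largest gap to the authors' own log2 was 1.31e-05. Calls use the authors' Cuffdiff q of at most 0.05 over all tested models (43 of 5437 models, 0.791%), and no other test was possible on pooled values. Intervals of 95% are the log2 ratio with 1.96 SE to either side and take genes as independent when pairs are compared. Corrections subtract the median of the same 1 of 10 bins of model length (the span from start to end) or mean FPKM. Symbols and gene lengths came from the R64 annotation. The computations used Python 3.11.15, pandas 2.3.3 and SciPy 1.17.1. They were checked on simulated data with the same SE for all genes and a normal p. That check cannot test the intervals, since the SE and p of the real data behave otherwise. The members and lists were chosen with earlier results of these data known. Named genes are the 7 regulators and, of each list, called members or else the 2 highest and 2 lowest, and the 2 nearest genes by level. Promoter motifs were not searched.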

Additional observations from a re-analysis of the deposited data

How the results depend on the processing

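The count of called regulators was 0 with a q of 0.05 or 0.01, with q recomputed over genes and with a 2-fold limit, and 1 with an unadjusted p of 0.05. Of 42 recomputed log2 ratios of regulators (1 or 5 FPKM added, centring, corrections for length or level), 41 kept their sign and moved by less than their SE. The log2 ratio of GCR1 ranged from -0.39 to -0.31. FBP26 changed sign when corrected for length and level together, at -0.0027, a correction chosen after seeing the data. So did the median of the basic helix-loop-helix list, at -0.0017. The median of the ribosomal coregulator list turned to -0.0076 when centred, -0.011 when corrected for length and -0.013 when corrected for level, and that of the Rap1 partner list to -0.0052 when centred. The cause was not tested. With 1 model per regulator, no other model could be tried. Adding 1 FPKM moved no ratio between regulators beyond its error. No library could be left out, since values are pooled. No paired analysis was possible because the columns carry no replicate numbers. The depth per gene is unknown.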
